A study of Clytia hemisphaerica and Astroides calycularis and Pocillopora acuta with 16 samples.

Results

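Described here are 3 genes of the hydrozoan jellyfish Clytia hemisphaerica that encode predicted enzymes and had higher counts at the oral end of the planula larva. They are XLOC_002832, a choloylglycine hydrolase, XLOC_004739, a glycosyl hydrolase of family 9, and XLOC_006532, a pyridoxal phosphate dependent enzyme. They were picked by identifier, 3 of the 18755 gene models in the Clytia count tables, and all 3 were found and passed the filter on low counts. Because the oral and aboral counts themselves chose the genes, their differences between the ends are given as a description with no test.

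RNA was sequenced from pools of aboral ends, oral ends and uncut planulae of Clytia and of the coral Astroides calycularis, with 2 libraries in each group, and from aboral and oral ends of the coral Pocillopora acuta, with 1 library for each of the parent colonies C3 and C5 at each end. Clytia larvae came from crosses of laboratory Z strain medusae and were bisected by hand as late planulae, at an age when they can already settle. Astroides larvae were released by wild colonies, and Pocillopora larvae, which carry algal symbionts, by aquarium colonies propagated from the same genotype. The labels give no treatment, and Clytia larvae were cooled on ice for the bisection. Each library was a pool of tissue from several larvae, many in Clytia and few in Pocillopora.

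The choloylglycine hydrolase family belongs to the linear amide C-N hydrolases. It is best known for bacterial enzymes that cleave conjugated bile acids or penicillin V, and in vertebrates it has relatives that cleave ceramide and other fatty acid amides in lysosomes. Family 9 glycosyl hydrolases are mostly cellulases, which cut beta-linked glucan chains, and occur in bacteria, plants and animals such as termites. Enzymes with pyridoxal phosphate, the active form of vitamin B6, act mainly on amino acids, and the family of XLOC_006532 includes serine and threonine dehydratases and cystathionine beta-synthase. The planula swims with its aboral pole in front and attaches by it, and the oral end later forms the mouth region of the polyp. In the study's annotation XLOC_002832 and XLOC_004739 carry a predicted signal peptide, the mark of a protein that enters the secretory route, and XLOC_006532 carries none.

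The 6 Clytia libraries held between 30129270 and 31043438 counts each, so depth differed little between groups, and 15599 genes could be tested. End markers followed the labels, but they too were listed from these libraries, so their values are a description and no independent check. The aboral transcription factor gene FoxQ2a (XLOC_014597) stood at 136 ± 21.5 CPM (its share of the library total, scaled so that all genes sum to the same value) in aboral and 9.28 ± 1.14 CPM in oral ends, and the Wnt ligand gene XLOC_035748 at 0.130 ± 0.137 and 31.6 ± 0.546 CPM (SD, n = 2). Summed markers of the aboral neurosecretory cells, 18 genes, ran from 5010 to 5700 CPM in aboral and from 33.1 to 38.0 CPM in oral libraries. The study picked these cells as aboral with genes enriched in these libraries, so this sum is a description as well. In pooled tissue, fewer cells of a type and less RNA per cell cannot be told apart.

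The first question was how strongly each enzyme gene marked the oral end. All 3 genes were far more abundant in oral than in aboral ends, and uncut larvae lay between the ends in each of them. The choloylglycine hydrolase kept the smallest aboral share, while the family 9 gene kept the largest aboral share of the 3. Of all genes tested 14.8% were called higher orally (edgeR, adjusted p under 0.05) and 33.2% in either direction, and 37.1% had both oral libraries above both aboral ones. The number called higher orally was 2304, but 3546 with the replicate number as a block, 1474 without aboral replicate 1 and 1360 without aboral replicate 2. The 3 genes are among those called higher orally by their choice, so nothing is read from that count. The number called higher aborally was 2876, and 3755 with the replicate number as a block. The Clytia shares called at each end are from the fit with no block.

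XLOC_002832, the choloylglycine hydrolase, stood at 8.30 and 6.74 CPM in aboral replicates 1 and 2, at 686 and 509 CPM in oral replicates 1 and 2, and at 340 and 320 CPM in the uncut replicates. Both oral libraries were high, both aboral libraries were low, and no groups overlapped. The aboral values rest on 256 and 203 counts, against 21304 and 15738 in oral ends. Group means were 7.52 ± 1.11 CPM aborally and 598 ± 125 CPM orally (SD, n = 2), a ratio of 79.5, so that the aboral level was 1.26% of the oral one. The oral minus aboral log2 difference was 6.27 ± 0.19 (SE), rank 2 of all genes tested when ordered from the most oral to the most aboral. The gene at rank 1 was the Wnt ligand gene XLOC_035748, at 7.82.

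XLOC_004739, the family 9 glycosyl hydrolase, stood at 75.4 and 45.1 CPM in the aboral, 885 and 725 CPM in the oral, and 424 and 346 CPM in the uncut replicates 1 and 2. The groups did not overlap here either, but the aboral replicates were farther apart than those of the other groups on a log scale. Means were 60.2 ± 21.4 CPM aborally, 805 ± 113 CPM orally and 385 ± 55.3 CPM in uncut larvae (SD, n = 2). The ratio of oral to aboral means was 13.4, with the aboral level at 7.48% of the oral one. The log2 difference was 3.70 ± 0.24 (SE), rank 27 of the genes tested.

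XLOC_006532, the pyridoxal phosphate dependent enzyme, stood at 4.38 and 6.51 CPM in the aboral, 94.1 and 105 CPM in the oral, and 49.8 and 62.4 CPM in the uncut replicates 1 and 2. Again every oral library lay above every uncut one and every uncut one above every aboral one. Means were 5.44 ± 1.503 CPM aborally, 99.8 ± 7.98 CPM orally and 56.1 ± 8.87 CPM in uncut larvae (SD, n = 2), with the aboral level at 5.45% of the oral one, a ratio of 18.3. The log2 difference was 4.15 ± 0.20 (SE), rank 21.

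The aboral remainder of the 3 genes, 1.26% to 7.48% of the oral level, can be set beside that of the Wnt ligand genes used as oral markers. It was 0.412% for XLOC_035748, 2.95% for XLOC_031686 and 16.9% for XLOC_001931. How much of the remainder came from tissue of the other end carried over in the bisection was not tested.

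**Figure D1:**
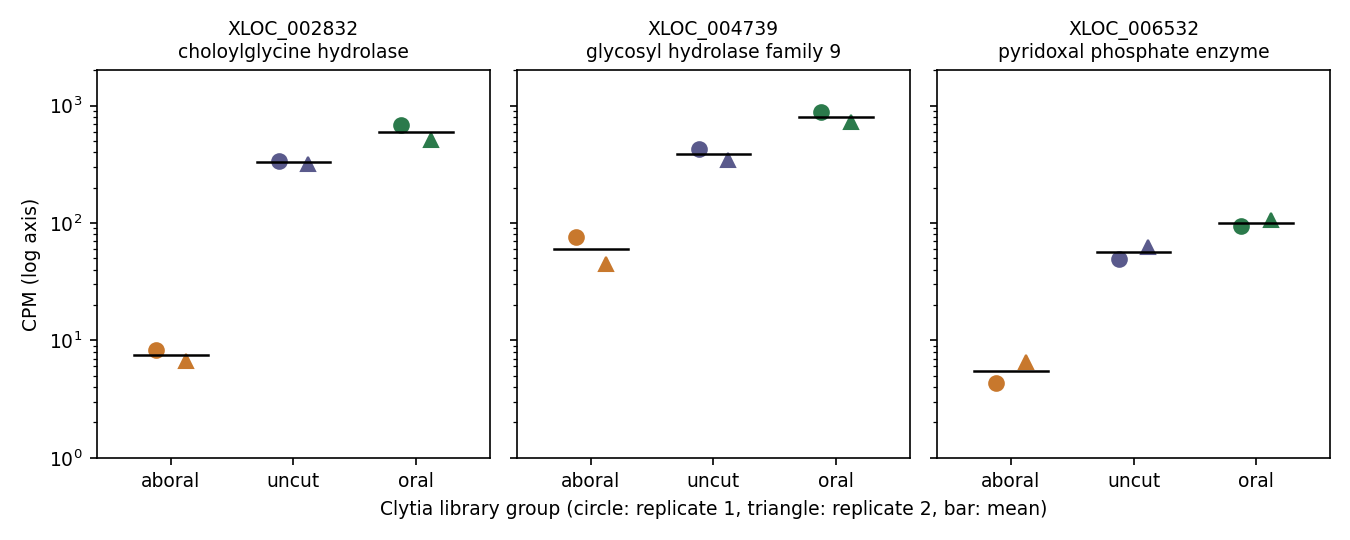
CPM on a log axis for the 3 enzyme genes in aboral, uncut and oral libraries of Clytia, with circles for replicate 1, triangles for replicate 2 and a bar for the mean of 2 libraries. In each panel the oral pair lies above the uncut pair and the uncut pair above the aboral pair, with XLOC_002832 spanning 6.74 to 686 CPM.

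Uncut larvae supplied libraries that held both ends. In XLOC_002832 the uncut mean of 330 ± 13.8 CPM was above the aboral mean by 5.43 ± 0.18 on the log2 scale and differed from the oral mean by -0.84 ± 0.15 (SE). The same differences were 2.65 ± 0.23 and -1.04 ± 0.22 in XLOC_004739, and 3.35 ± 0.19 and -0.80 ± 0.16 in XLOC_006532. Every library followed the order oral above uncut above aboral in 14.3% of all genes tested. The 3 genes share this order, and it is a description, since the ends chose them.

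With the aboral mean set at 0 and the oral mean at 1 on the CPM scale, uncut larvae lay at 0.546 in XLOC_002832, 0.436 in XLOC_004739 and 0.537 in XLOC_006532. The median position was 0.529 over the 50 genes called higher orally by 8-fold or more (quartiles 0.479 and 0.559), a group that holds these genes. With all libraries the family 9 gene thus lay below the lower quartile and the other genes inside the quartiles. Without 1 library it ran from 0.383 to 0.488, XLOC_002832 from 0.475 to 0.643 and XLOC_006532 from 0.471 to 0.604. These placements were therefore not stable. A position near the middle is where an equal mix of RNA from both ends would put a gene.

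The uncut level was then divided by the mean of the same-numbered aboral and oral libraries. For XLOC_004739 this ratio was 0.883 in replicate 1 and 0.898 in replicate 2, below 1 in both. For XLOC_002832 it was 0.978 and 1.24, on both sides of 1, and for XLOC_006532 it was 1.01 and 1.11. Over all genes tested the ratio of means had a median of 0.992 with quartiles of 0.938 and 1.04. The family 9 gene, at 0.890, was at percentile 13.4 of all genes, XLOC_002832, at 1.09, at percentile 87.3, and XLOC_006532, at 1.07, at percentile 82.8. In XLOC_002832 and XLOC_006532 the 2 replicates differed by more than the mean ratio differed from 1.

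**Figure D2:**
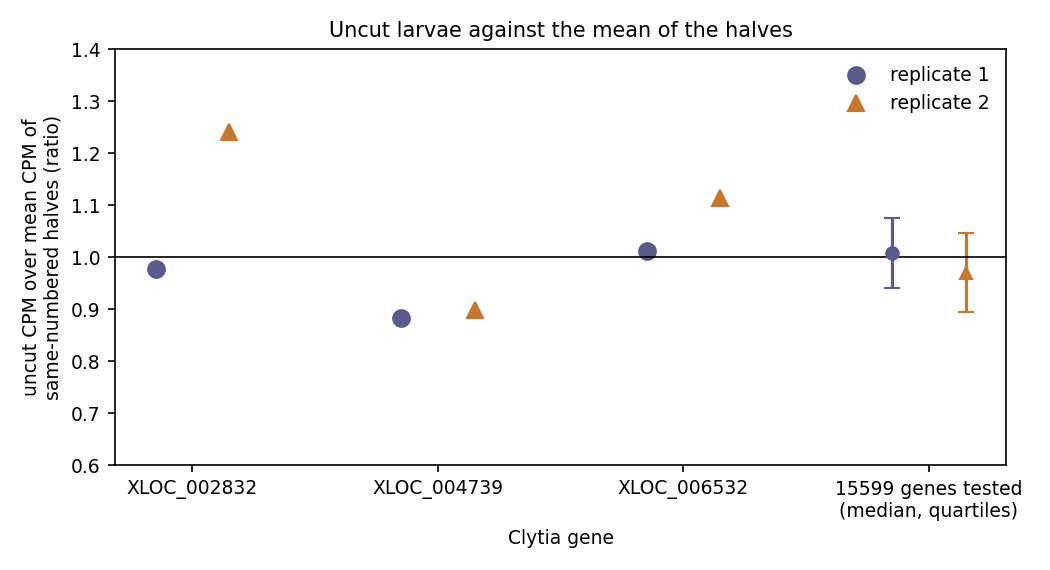
Ratio of uncut CPM to the mean CPM of the aboral and oral libraries with the same replicate number, for the 3 enzyme genes and, at the right, the median and quartiles over the 15599 genes tested, with circles for replicate 1 and triangles for replicate 2. Both points of XLOC_004739 lie below 1, at 0.883 and 0.898, while the points of XLOC_002832 lie apart at 0.978 and 1.24.

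The replicates differed in the same order in all groups. XLOC_002832 and XLOC_004739 were higher in replicate 1 than in replicate 2 in aboral, oral and uncut libraries alike, and XLOC_006532 was higher in replicate 2 in all 3 groups. In XLOC_004739 replicate 2 differed from replicate 1 by -0.74 in aboral, -0.29 in oral and -0.29 in uncut libraries on the log2 scale. In XLOC_006532 these differences were 0.52, 0.16 and 0.32, and in XLOC_002832 they were -0.28, -0.43 and -0.09. The replicates kept 1 order in all 3 groups in 46.1% of genes tested, so the shared order alone is common.

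In an edgeR fit with the replicate number as a block, chosen after these values were seen, the difference between the replicates had an adjusted p under 0.05 in 9.29% of genes. It was -0.41 ± 0.08 (SE, adjusted p = 0.0145) in XLOC_004739 and 0.30 ± 0.07 (adjusted p = 0.0286) in XLOC_006532, over all 6 libraries. In XLOC_002832, at -0.25 ± 0.08, it did not pass (adjusted p = 0.0686). Without uncut replicate 1 or 2 XLOC_002832 passed (adjusted p = 2.02e-07 and 8.42e-08), and without aboral replicate 2 XLOC_006532 did not (adjusted p = 0.0509). Over all alternatives run for this difference the adjusted p ran from 8.42e-08 to 0.558 in XLOC_002832, from 6.23e-11 to 0.0436 in XLOC_004739 and from 0.0161 to 0.0509 in XLOC_006532. Against the differences between the ends these differences were small.

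**Figure D3:**
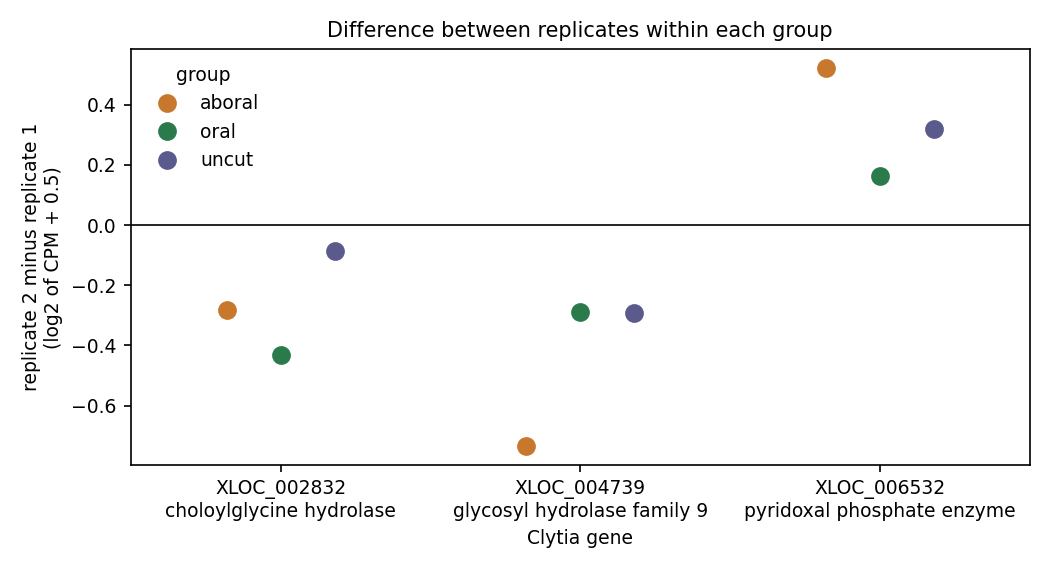
Replicate 2 minus replicate 1, as a difference in log2 of CPM + 0.5, for each enzyme gene in the aboral, oral and uncut group of Clytia, with 1 point per group. All points of XLOC_002832 and XLOC_004739 lie below 0 and all points of XLOC_006532 above 0, and the widest is the aboral point of XLOC_004739 at -0.74.

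The likeness of the 3 genes over the 6 libraries is largely set by the end contrast that chose them, and within groups the replicates of XLOC_006532 went the other way from those of the other genes. Pearson's r between their log2 CPM values was 0.982 for XLOC_002832 with XLOC_004739, 0.986 for XLOC_002832 with XLOC_006532 and 0.963 for XLOC_004739 with XLOC_006532. The root mean square difference of the centred log2 values was smallest, at 0.514, between XLOC_004739 and XLOC_006532. It was 1.25 and 1.03 for XLOC_002832 with each of them.

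The genes with the most similar profile to each enzyme gene, by that root mean square difference over 6 libraries, were named by a fixed rule, 5 for each. For XLOC_002832 they were XLOC_033562, the gene XLOC_044794, whose WIF domain is known to bind Wnts, the Wnt ligand gene XLOC_031686, XLOC_043917 and XLOC_038644. The differences ran from 0.338 to 0.643, and XLOC_031686 stood at 2.38 CPM in aboral, 47.5 CPM in uncut and 80.8 CPM in oral libraries. The 3 without a named domain are given by identifier alone.

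For XLOC_004739 the nearest genes were closer, from 0.178 to 0.269. They were XLOC_013191 with a homeodomain, the DNA-binding part of many patterning genes, the ammonium transporter family gene XLOC_008658, XLOC_014418, the T-box transcription factor gene XLOC_044272 and XLOC_004785 with an RNA recognition motif. For XLOC_006532 they were XLOC_034122 with a thrombospondin type 1 domain, XLOC_032977, the rhodopsin-family receptor gene XLOC_016754, MSTRG.21860 with a C-type lectin domain and the T-box gene XLOC_016911, from 0.225 to 0.263. All 15 genes belong to the study's list of oral genes, which rests on these libraries. Ranked by Pearson's r instead, 2, 0 and 3 of the 5 nearest genes of XLOC_002832, XLOC_004739 and XLOC_006532 were shared.

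All 3 enzyme genes are also among the 802 markers that the study listed for 1 cluster of its planula single-cell atlas, cluster 1. Of all 15599 genes tested, 800 are among these markers, and of the 140 genes in the study's list of oral genes, 36 are. Whether the 3 enzyme genes mark further clusters is not known here, since the list at hand holds only part of the atlas. That cluster's markers did not lean orally as a group. Of 800 tested, 19% were higher orally and 45.9% higher aborally, against 14.8% and 18.4% of all genes, and their median log2 difference was -0.27 against 0.01 for all genes.

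The next question was whether other enzymes of the same families lay at the same end. Genes whose annotation in the study's lists named a polysaccharide-acting enzyme numbered 7, and those with a pyridoxal phosphate enzyme domain, XLOC_006532 aside, also numbered 7. The lists are not the whole families of the genome, and genes that the study listed for their level in these libraries are described with no p. The polysaccharide-acting enzymes lay mostly at the aboral end, with 5 called higher aborally, 1 orally and 1 without a call, and a median log2 difference of -2.01. Over all genes tested 18.4% were higher aborally and 14.8% orally, with a median of 0.01. All but 1 of the 7 had been listed for a difference in these libraries, so the split is not independent evidence.

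The other family 9 glycosyl hydrolase, XLOC_005988, had the opposite pattern to XLOC_004739. It stood at 3.89 and 4.95 CPM in aboral, 0.0322 and 0.129 CPM in oral, and 1.79 and 1.70 CPM in uncut replicates 1 and 2. Both aboral libraries were above all others, as both were above the oral ones in 30.2% of genes tested, and the oral values rest on 1 and 4 counts. Summed over replicates, 269 aboral against 5 oral counts gave a ratio of 54.7, with an exact 95% interval of 23.1 to 170 that covers counting error only. The fitted log2 difference was -5.75 ± 0.40 (SE), against 3.70 for XLOC_004739. It was -5.10 without oral replicate 1 and -6.96 without oral replicate 2.

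Of the further aboral genes, XLOC_013806 stood at 10560 CPM in aboral and 18.2 CPM in oral ends, a log2 difference of -9.22. Its annotation names several unrelated domains, a family of unknown function first and acetyl xylan esterase last, and its place in the list rests on the last alone. XLOC_040156, of glycosyl hydrolase family 20, which holds hexosaminidases, stood at 45.3 and 0.403 CPM (-6.84). XLOC_006372, of family 31, which holds alpha-glucosidases, stood at 95.03 and 36.4 CPM (-1.43).

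The pectin acetylesterase domain, shared by plant enzymes and by the animal Wnt deacylase Notum, was found in genes at both ends. XLOC_044658 stood at 13.1 CPM aborally and 3.36 CPM orally (-2.01), and XLOC_017925 at 6.39 and 5.61 CPM in aboral and 25.2 and 20.99 CPM in oral replicates (1.90). The only gene of this list that came from single-cell data alone was MSTRG.10338, a lytic polysaccharide mono-oxygenase, an enzyme that cuts polysaccharide chains by oxidation. It stood at 467 and 395 CPM in aboral, 531 and 501 CPM in oral, and 543 and 475 CPM in uncut replicates 1 and 2. Its log2 difference of 0.22 ± 0.10 (SE) did not pass (edgeR, adjusted p = 0.152), but it did with the replicate block (adjusted p = 0.0141, and from 0.0141 to 0.594 over all alternatives), with oral above aboral in both replicates.

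**Figure D4:**
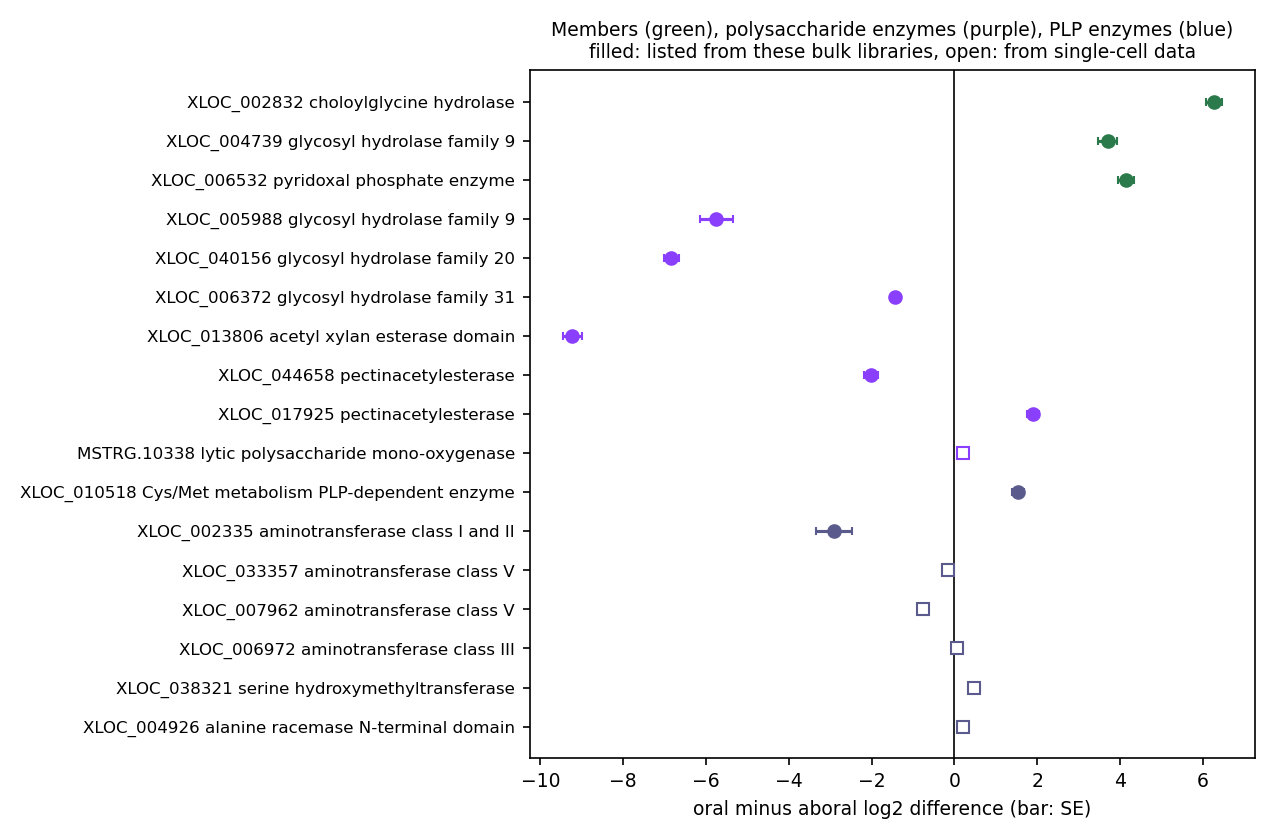
Oral minus aboral log2 difference with its SE for the 3 enzyme genes in green, 7 polysaccharide-acting enzymes in purple and 7 pyridoxal phosphate (PLP) enzymes in blue, with filled points for genes listed from these libraries and open squares for genes listed from single-cell data. The family 9 genes lie on opposite sides of 0, at 3.70 and -5.75, and the single-cell PLP genes lie between -0.77 and 0.47.

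The pyridoxal phosphate enzymes showed no common direction, with 2 called higher orally, 2 higher aborally and 3 without a call, and a median log2 difference of 0.05. Over all genes tested 14.8% were higher orally and 18.4% aborally, with a median of 0.01. XLOC_010518, with the domain of cysteine and methionine metabolism enzymes, stood at 110 CPM aborally and 330 CPM orally (1.53). XLOC_002335, an aminotransferase of class I and II, stood at 3.57 and 0.484 CPM (-2.92). Both came from the study's lists on these libraries.

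The 5 genes listed from single-cell data could be tested. The serine hydroxymethyltransferase XLOC_038321, which passes 1-carbon units from serine to folate, rose orally by 0.47 ± 0.08 (SE, edgeR, adjusted p = 0.00346), from 130 and 125 CPM to 188 and 178 CPM. The class V aminotransferase XLOC_007962 was lower orally, with a log2 difference of -0.77 ± 0.08 (adjusted p = 2.18e-04), at 216 and 228 CPM aborally and 137 and 133 CPM orally. In both genes the oral and aboral libraries did not overlap. Over all genes tested, both oral libraries were above both aboral ones in 37.1% and below them in 30.2%.

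The remaining genes of this list had no call. The class V aminotransferase XLOC_033357 stood at 805 and 746 CPM aborally and orally (-0.15, adjusted p = 0.325), the class III aminotransferase XLOC_006972 at 587 and 628 CPM (0.05, adjusted p = 0.753), and XLOC_004926, with an alanine racemase domain, at 40.7 and 48.7 CPM (0.21, adjusted p = 0.165). Each of the 5 tested PLP genes thus differed between the ends by less than 1 on the log2 scale.

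Apart from the 3 enzyme genes, the study's list of oral genes held 19 enzymes, all higher orally by their choice, with a median log2 difference of 2.26. XLOC_017925 and XLOC_010518, described above with their families, are among the 19. Only 4 of the 19 exceeded XLOC_006532. XLOC_005649, a prolyl 4-hydroxylase alpha subunit, which in animals modifies collagen, stood at 0.360 CPM aborally and 14.7 CPM orally (5.29), and the galactose sulfotransferase XLOC_006664 at 0.327 and 11.8 CPM (5.11). The sulfotransferase XLOC_003004 had 4 aboral and 132 oral counts, a ratio of 32.5 (exact 95% counting interval 12.4 to 121). The flavin-binding monooxygenase XLOC_010971 had 7 and 163 counts, a ratio of 22.9 (10.9 to 57.9). None of the 19 exceeded the 6.27 of XLOC_002832.

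Corals supplied libraries that the choice of the genes had not used. The study's annotation gave an Astroides ortholog for XLOC_002832 and a Pocillopora ortholog for XLOC_006532, and none was listed for XLOC_004739. Neither coral ortholog differed detectably between the ends. Of all genes tested, 6.99% differed between the ends in Astroides and 8.05% in Pocillopora.

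STRG.5135, the Astroides choloylglycine hydrolase, had few counts, with 16 and 4 in aboral, 13 and 12 in oral, and 11 and 24 in uncut replicates 1 and 2. These are 0.593 and 0.148 CPM aborally, 0.545 and 0.446 CPM orally, and 0.475 and 0.952 CPM in uncut larvae, and all groups overlapped. The oral minus aboral log2 difference was 0.38 ± 0.74 (SE, edgeR, adjusted p = 0.879), with a 95% interval of -1.38 to 2.13.

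XP_027059519, the Pocillopora pyridoxal phosphate enzyme, stood at 15.2 CPM in the aboral and 17.6 CPM in the oral library of colony C3, and at 11.99 and 10.5 CPM in those of colony C5. It was higher orally in 1 colony and lower in the other, and the ends overlapped. The log2 difference within colonies was 0.01 ± 0.21 (SE, adjusted p = 0.992), with a 95% interval of -0.52 to 0.53. The difference between species was not tested, since the Clytia genes had been chosen for their contrast.

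**Figure D5:**
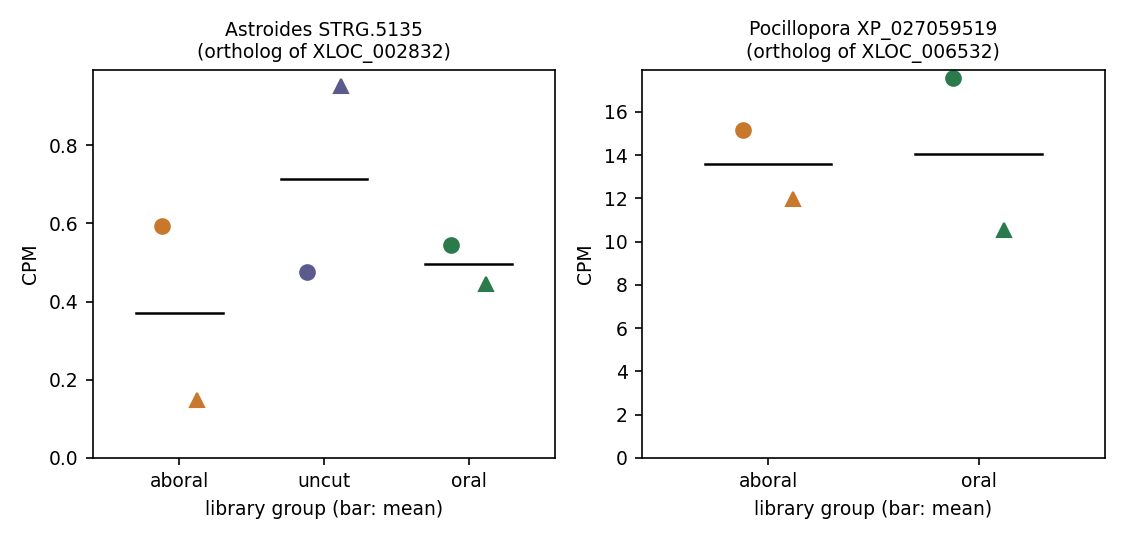
CPM per library of the Astroides ortholog of XLOC_002832 in aboral, uncut and oral libraries and of the Pocillopora ortholog of XLOC_006532 in aboral and oral libraries, with circles for replicate 1 or colony C3, triangles for replicate 2 or colony C5, and a bar for the mean. In both panels the aboral and oral points overlap, from 0.148 to 0.593 CPM in Astroides and from 10.5 to 17.6 CPM in Pocillopora.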

How the data were processed

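The authors deposited raw counts per gene model, 1 table per library, made with STAR in its gene count mode from paired-end reads. They mapped to a chromosome-level assembly for Clytia, their own assembly for Astroides, and the Pocillopora damicornis genome for Pocillopora acuta. The strand setting was not given in the sources used here. The tables hold no names, lengths or coordinates, and 0 Clytia identifiers matched the reference gene table, so names, signal peptides and orthologs come from the study's annotation. CPM was taken on library totals, and levels of different genes were not compared.

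Each species was fitted in R 4.3.3 with edgeR 4.0.16 (filterByExpr, TMM, glmQLFit in legacy mode, glmQLFTest, two-sided, Benjamini-Hochberg over all genes tested). Library totals lay between 23146999 and 26980344 for Astroides (21254 genes tested) and between 20256336 and 24838448 for Pocillopora (17164). The Clytia and Astroides fits held 6 libraries with no block, and the Pocillopora fit 4 with the colony as a block. Residual degrees of freedom were 3, 3 and 1. Per the study's methods, each biological replicate comprised material of every group. Replicate differences were correlated across genes. In Clytia r was 0.500 for aboral with oral, 0.336 for aboral with uncut and 0.364 for oral with uncut libraries, and in Astroides it was 0.694, 0.254 and 0.237. Same-numbered libraries were therefore taken as paired. The Clytia and Astroides fits still held no block by design. The blocked value is printed where it alters the call of a named gene that was tested, and for the Clytia numbers called at each end. Counts within gene lists were not run with the block. Groups are pools of larvae, and p-values measure only the spread between these libraries.

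The genes and lists were chosen with earlier results of these data known. Genes named are the 3 enzyme genes, both family lists, the 4 other oral enzymes with the largest change, the 5 nearest profiles of each gene, the coral orthologs and end markers. Other aboral marker lists fell orally too. The study picked the Clytia neuron clusters as aboral with genes enriched in these libraries, so their counts are not independent evidence. Higher aborally were 14 of 14 HFRIamide, 17 of 20 GLWamide and 24 of 26 QYFamide neuron markers and 6 of 7 gland mucous markers. Higher orally was 1 gland mucous marker. Over all genes tested, 18.4% were higher aborally and 14.8% orally. In simulated data with 200 changed genes, the fit found 82.0% of 2-fold changes (log2 of 1) in Clytia, 23.0% in Astroides and 65.0% in Pocillopora. False calls made up 6.67%, 4.55% and 24.9% of calls, so Pocillopora calls are the least certain. Changed genes were drawn from those with a mean above 1 CPM, and no replicate or colony effect was simulated. STRG.5135 lay below that level, so the rates do not cover it. Alternatives were RLE size factors, DESeq2 1.42.0, no filter, the replicate block, the aboral and oral libraries alone, and leaving out each replicate. In Pocillopora, the fits that left out 1 replicate held no colony block.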

Additional observations from a re-analysis of the deposited data

How the results depend on the processing

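The oral minus aboral, uncut minus aboral and uncut minus oral log2 differences of the 3 enzyme genes kept their direction and moved by less than the spread between replicates under every alternative run. Leaving out each replicate gave oral minus aboral values of 6.03 to 6.48 in XLOC_002832, 3.38 to 4.11 in XLOC_004739 and 3.89 to 4.47 in XLOC_006532. The position of uncut larvae ran from 0.475 to 0.643, from 0.383 to 0.488 and from 0.471 to 0.604 in the same order. With the replicate block the number of genes higher orally was 3546 against 2304, and without 1 replicate it ran from 1360 (without aboral replicate 2) to 2157, with 1474 without aboral replicate 1. Among the genes named, the replicate block changed the call of MSTRG.10338 and of no other tested gene. The Astroides ortholog STRG.5135 ran from -0.26 (without aboral replicate 2) to 1.69 without 1 replicate, with adjusted p from 0.467 to 0.994. The Pocillopora ortholog XP_027059519 stood at -0.024 without the filter and at 0.05 with no colony block (edgeR, adjusted p = 0.959 and 0.997). It ran from -0.46 to 0.40 without 1 library, in fits that also held no colony block. The ends were then not balanced over the colonies. XLOC_006972 ran from -0.039 to 0.15 without 1 replicate (aboral replicate 1 or oral replicate 2 turned it negative). These 3 genes thus had no stable direction, and the cause of the changes was not tested. The low counts of STRG.5135, 4 to 24 per library, limit what could be detected there. XLOC_005988 ran from -6.96 to -5.10 with oral replicate 2 or 1 left out, values that rest on 1 and 4 oral counts.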
